A study of Mus musculus with 35 samples.

Results

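Macrophages exposed to lactate were set against control macrophages in a small group of cells that had been lysed whole for SMART-seq2, without any cytoplasm being drawn off first. The comparison holds 3 lactate-treated cells (Lactic5, Lactic6 and Lactic7) and 2 control cells (CTL4 and CTL8), 5 of the 35 single cells of the series, and these are all the whole cells that the labels name. All 5 were primary peritoneal macrophages of male C57BL/6 mice aged 6 months, selected by adherence to the flask. Exposure to lactate was at 10 mM over 72 h, whereas the labels call the other cells CTL and name no vehicle. The cDNA of all 5 was amplified over 20 PCR cycles. No source used here names the animal or the culture of a cell, so each group counts as 1 sample. No difference below has a replicate check and no p-value is given. A gene is called separated where its CPM (the gene's counts scaled to a common total per cell) in every cell of 1 group lay above its CPM in every cell of the other. In the study, lactate served as a metabolic perturbation with which to try the method on changing cells.

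Resident macrophages of the peritoneal cavity clear dying cells and microbes, and they make many of the proteins that tag such material for uptake, among them the chains of C1q, the recognition molecule of the classical complement pathway. Lactate crosses the plasma membrane through monocarboxylate transporters, and lactate dehydrogenase converts it to pyruvate, which can enter the TCA cycle. In macrophages, lactate is known as the end product of glycolysis, as a fuel, and as a signal that has been tied to histone modification and to M2-type genes such as Arg1.

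Macrophage markers were abundant in all 5 cells. Totals ran from 494520 to 635694 counts in the lactate-treated cells and were 851417 and 560859 in the control cells, and a floor of 3 counts corresponds to 3.52 to 6.07 CPM in a cell. The 18 macrophage markers summed to 102524, 64441 and 72801 CPM with lactate and to 79031 and 60579 CPM in controls. Mesothelial and mast cell markers had no count in any of the 5 cells. Fibroblast markers summed to 39.3 to 241 CPM in the lactate-treated cells and to 16.05 and 34.1 CPM in the controls, with 7 of 14, Col3a1 and Pdgfra among them, at 0 in all 5 cells. Their part in the differences below was not tested. The lactate-treated cells were no more like each other than like the controls. Taken across genes, which are no replicates of one another, Spearman's rho of the counts ran from 0.539 to 0.706 between lactate-treated cells, was 0.674 between the controls, and ran from 0.554 to 0.709 between the groups.

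Of 9732 genes with 10 counts or more over the 5 cells, 583 (5.99%) were higher and 1499 (15.4%) were lower in every lactate-treated cell. With 3 cells against 2, genes can separate by the order of the cells alone, without any effect of lactate. How many of these genes did so was not tested, so the counts are not numbers of genes that respond to lactate. With the stricter demand that the nearest cells of the groups differ at least 2-fold, 92 (0.945%) were higher and 378 (3.88%) lower. When the exact Poisson 95% intervals of those nearest cells were required not to meet, 95 (0.976%) were higher and 267 (2.74%) lower. These last genes are called separated beyond counting error. The counts carry no molecular identifiers, so such intervals cover counting error only. The excess of lower genes went with low counts and with length. At least 1 lactate-treated cell lay under 3 counts for 952 of the 1499 lower genes, whereas at least 1 control cell did so for 169 of the 583 higher genes. The median exonic length was 5622 bases in lower genes, 3769 bases in higher genes and 4589 bases in all genes. The part of depth and length in the calls was not tested. The median log2 ratio of lactate over control, taken from the CPM of counts summed per group, was -0.20 over all genes. It was -0.08 with the TMM factors of edgeR, which gave 724 higher and 1317 lower genes.

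**Figure D1:**
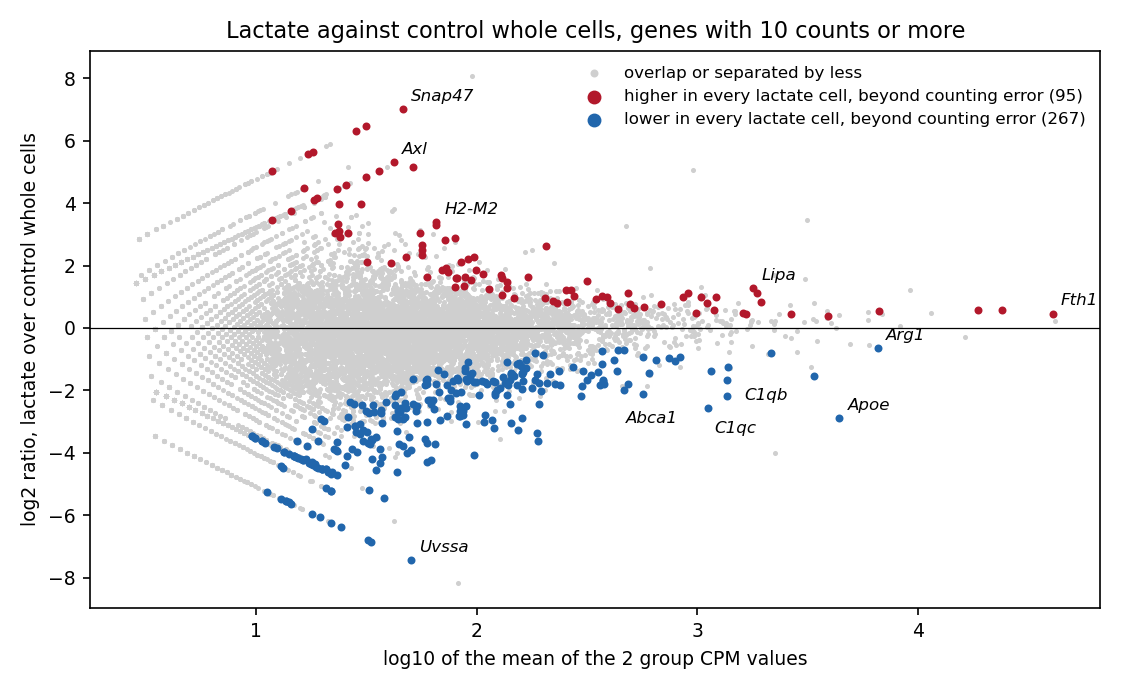
Log2 ratio of lactate over control whole cells (vertical) against the log10 of the mean group CPM (horizontal) for 9732 genes, each point a gene, with those separated beyond counting error in red (95 higher) and blue (267 lower). The slanted lines of points at the left are genes with few or no counts in 1 group, where the ratio depends on the floor of 3 counts. Apoe, C1qb and C1qc lie far below 0 at high levels, and Fth1 lies near 0.5 at the highest level.

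Complement genes were among those most often lower with lactate. Of 15 complement genes tested, 7 (46.7%) were lower in every lactate-treated cell and none was higher, beside 15.4% of all genes lower, and the list had a median log2 ratio of -1.49 beside -0.20 for all genes. C1qa, C1qb and C1qc encode the A, B and C chains of C1q and lie side by side on the minus strand of chromosome 4 in mm10 (GENCODE M21), C1qb from 136880129 to 136886187, C1qc from 136889804 to 136893065 and C1qa from 136895917 to 136898803. C1qc had 334, 382 and 269 CPM in the lactate-treated cells and 2012 and 1763 CPM in the controls, 5.85-fold lower with lactate by the sums. C1qb had 653, 369 and 499 CPM against 2481 and 1872 CPM. C1qa had 698, 597 and 661 CPM against 2322 and 1696 CPM. No lactate-treated cell came near a control cell, since the nearest cells of the groups differed 2.43-fold for C1qa, 2.87-fold for C1qb and 4.62-fold for C1qc. Their log2 ratios were -2.55 for C1qc (exact conditional binomial 95% interval -2.68 to -2.42), -2.17 for C1qb (-2.28 to -2.06) and -1.68 for C1qa (-1.78 to -1.58).

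The stretches upstream of C1qb, C1qc and Apoe, another gene of macrophages, are shown because these genes were lower together, and none is printed for C1qa. They come from RefSeq on GRCm38.p6, the assembly of mm10, on the minus strand, as far as they lie outside every exon of GENCODE M21. Capitals mark GAGGAA or its reverse complement TTCCTC, the core bound by PU.1, the lineage factor of macrophages, searched on both strands.
C1qb, chr4:136886201-136886450: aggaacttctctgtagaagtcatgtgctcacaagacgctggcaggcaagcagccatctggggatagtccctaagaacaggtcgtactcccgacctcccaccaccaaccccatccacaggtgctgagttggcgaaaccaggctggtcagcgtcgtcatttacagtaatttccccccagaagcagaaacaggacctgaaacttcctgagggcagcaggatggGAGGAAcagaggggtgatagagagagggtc
C1qc, chr4:136893066-136893164: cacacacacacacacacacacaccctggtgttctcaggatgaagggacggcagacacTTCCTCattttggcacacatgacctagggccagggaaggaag
Apoe, chr7:19699189-19699438: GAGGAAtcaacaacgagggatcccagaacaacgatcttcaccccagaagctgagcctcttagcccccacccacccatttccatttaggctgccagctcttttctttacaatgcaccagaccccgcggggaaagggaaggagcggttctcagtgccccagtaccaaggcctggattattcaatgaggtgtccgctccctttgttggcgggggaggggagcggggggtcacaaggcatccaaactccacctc
Each stretch held 1 match. The motif occurred in 23.3% of 32851 upstream windows of 250 bases and in 9.91% of the same windows restricted to the 99 bases kept for C1qc. A match is a description of the letters, not of a bound site.

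Receptors and a central component of complement followed the same direction. C5ar1, the receptor for the anaphylatoxin C5a, had 121, 309 and 206 CPM with lactate and 755 and 744 CPM in controls, a log2 ratio of -1.78 (-1.96 to -1.61). C3ar1, the receptor for C3a, had 576, 555 and 426 CPM against 807 and 1451 CPM. C4b, a component of the classical pathway, had 206, 76.7 and 201 CPM against 688 and 387 CPM. C4b has a near-identical neighbour, and how the counting divided shared reads is not given in the sources used here. These 3 genes were separated beyond counting error. C3, the component on which the pathways converge, was separated by less, with 708, 346 and 746 CPM against 823 and 813 CPM. It overlapped with TMM or DESeq2 factors, which left 6 of the 15 lower and complement with a smaller share of lower members than the M2-type list below. The factors of the alternative pathway overlapped: Cfb, a protease of its convertase, had 1519, 700 and 2036 CPM against 2259 and 1949 CPM, and properdin (Cfp) had 654 CPM in Lactic7 beside 546 CPM in CTL8.

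Among cholesterol efflux genes, Apoe and Abca1 were several times lower with lactate. Of 13 tested, 4 (30.8%) were lower and 1 (7.69%) higher in every lactate-treated cell, beside 15.4% and 5.99% of all genes, and their median log2 ratio was -0.54. Apoe, the apolipoprotein that takes up cholesterol released by macrophages (chromosome 7, 19696109 to 19699188), had 807, 614 and 1658 CPM with lactate and 10338 and 3798 CPM in controls. Its lowest control cell was still 2.29 times its highest lactate-treated cell, and the log2 ratio was -2.88 (-2.96 to -2.81). That ratio depended on single cells, being -1.86 without CTL4 and -3.47 without Lactic7. Abca1, the transporter that hands cholesterol to apolipoproteins, had 198, 227 and 212 CPM against 1031 and 740 CPM, a log2 ratio of -2.10 (-2.27 to -1.93). The lactate-treated cells were almost level for Abca1, while the controls spread more. The phospholipid transfer protein Pltp had 115, 63.7 and 124 CPM against 281 and 271 CPM. Nr1h3, which encodes the sterol sensor LXR alpha, is among the 4 lower genes, with no count in the lactate-treated cells. Its call rests on CTL4, which held only 3.52 CPM of it, the floor of that cell, beside 96.3 CPM in CTL8. Abcg1, the exporter to mature lipoprotein particles, went the other way with 58.6, 42.4 and 64.5 CPM against 31.7 and 10.7 CPM, a separation within counting error.

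Genes used as M2-type or resolution markers were lower in 6 of 13 cases (46.2%) and higher in none, also with TMM or DESeq2 factors, and had a median log2 ratio of -1.93. Arg1, the arginase of alternatively activated macrophages and the most abundant of them, had 5830, 3867 and 5800 CPM with lactate and 6535 and 10241 CPM in controls, a log2 ratio of -0.64 (-0.68 to -0.60) that was -0.35 without CTL8 and -0.998 without CTL4. The nearest cells differed by a factor of 1.12, which exceeds counting error at this level. Mertk, a receptor for apoptotic cells, had 6.07, 42.4 and 81.8 CPM against 214 and 168 CPM. The scavenger receptor Stab1 had 20.2, 89.8 and 42.5 CPM against 199 and 207 CPM. Il4ra, the receptor chain for the cytokine that induces the M2 state, had 50.6, 113 and 123 CPM against 188 and 250 CPM. Tgfb1 and Tgm2 were separated within counting error, so the list rested on 4 genes beyond it. Mrc1 and Cd163, 2 further M2-type genes, overlapped between the groups.

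**Figure D2:**
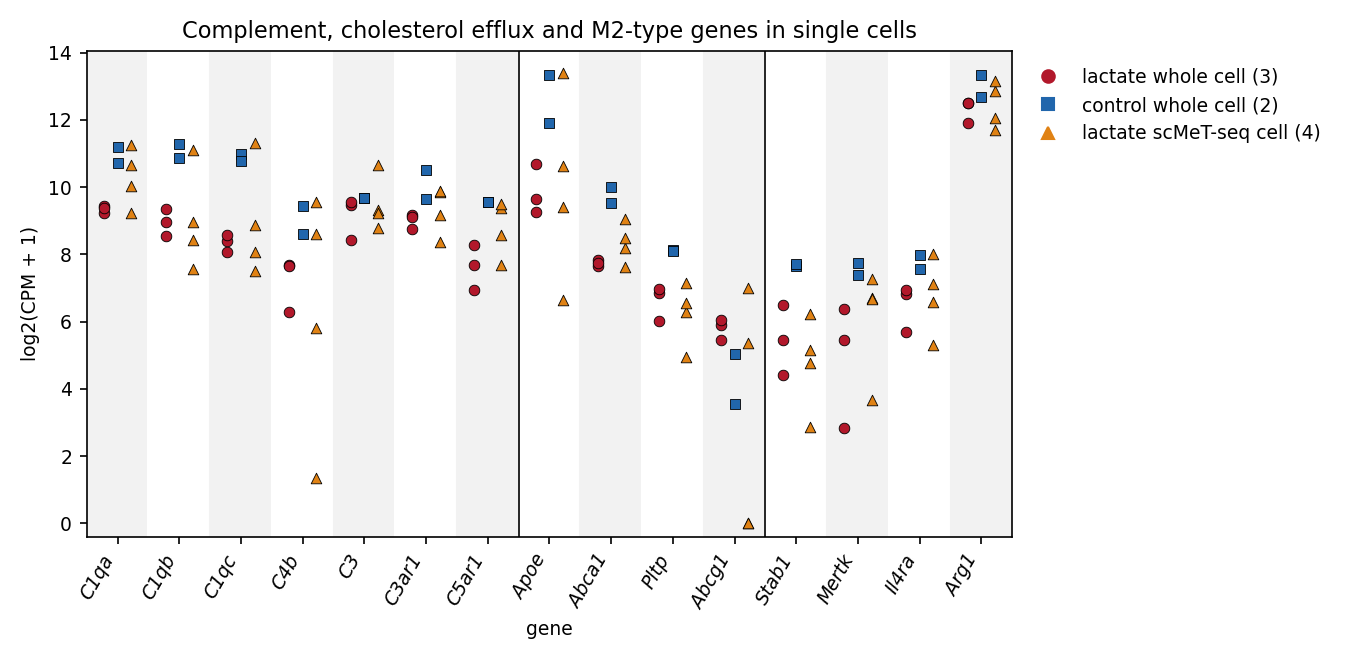
Log2(CPM + 1) per cell (vertical) for complement, cholesterol efflux and M2-type genes (horizontal, divided by vertical lines), with red circles for the 3 lactate-treated whole cells, blue squares for the 2 control whole cells and orange triangles for 4 lactate-treated scMeT-seq cells of the same table. The red points of C1qb and C1qc lie below 10 and the blue points above it, while 1 triangle of each lies with the controls.

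Of 21 phagocytic receptors tested, Axl alone was higher (4.76%, beside 5.99% of all genes), and Fcgr1, Marco, Mertk, Timd4, Stab1 and Lrp1 were lower (28.6%, beside 15.4%) in every lactate-treated cell. Axl, a receptor tyrosine kinase of the same family as Mertk that also binds apoptotic cells, had 158, 60.4 and 50.3 CPM with lactate and no count in either control cell. With the floor of 3 counts over the control group it was 39.7-fold higher. That log2 ratio of 5.31 is set by the floor and is no lower bound. It was 3.98, 4.58 and 4.70 without CTL4, CTL8 or Lactic5. Fcgr1, the high-affinity Fc receptor, had 36.4, 22.9 and 0 CPM against 124 and 87.4 CPM. Lrp1, a broad endocytic receptor, had 368, 389 and 302 CPM against 533 and 647 CPM. Adgre1, which encodes the macrophage marker F4/80, had 1322, 1618 and 1707 CPM against 3060 and 2298 CPM. Among the other macrophage markers, Cd68, Cybb and Tyrobp were higher and the C1q chains lower, so 9 of 18 were separated in 1 direction or the other. Of the 18, 16.7% were higher and 33.3% lower, beside 5.99% and 15.4% of all genes. The median log2 ratio of the list was -0.09 (0.03 with TMM factors). Marco, a scavenger receptor for bacteria, had 4099 CPM in Lactic5 close to 4313 CPM in CTL8, and it overlapped with TMM or DESeq2 factors. The median of the phagocytic list was -0.11, and 0.01 with TMM factors.

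The genes with the widest gaps above the controls were mostly of moderate level and belonged to no single pathway. Snap47, a SNARE protein of membrane fusion, had 178, 60.4 and 55.1 CPM with lactate and 0 and 1.78 CPM in controls, a ratio based on 1 control count with a log2 interval of 4.52 to 12.33, and the log2 ratio of 7.02 became 4.70, 5.69 and 6.35 without CTL8, CTL4 or Lactic5. H2-M2, a nonclassical MHC class I gene, had 86.9, 81.6 and 181 CPM against 15.3 and 5.35 CPM. Arpc5l, a subunit of the actin-branching Arp2/3 complex, had 80.9, 75.1 and 135 CPM against 16.4 and 5.35 CPM, a log2 ratio of 3.04 (2.31 to 3.85) that was 4.21 without CTL4. The nearest cells of the groups differed 5.35-fold for H2-M2 and 4.57-fold for Arpc5l. Ahsa1, an activator of the chaperone HSP90, had 166, 155 and 131 CPM against 34.1 and 30.3 CPM. Ugp2, which makes the UDP-glucose used for glycogen, had 119, 194 and 164 CPM against 35.2 and 30.3 CPM. Ahsa1 and Ugp2 were alike in having tight control values and no low cell. Malt1, Zdhhc3, Mob4, Marc2, Nudcd2 and the linker histone Hist1h1c completed the 12, with nearest cells 2.77 to 3.14 times apart.

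Among the most abundant genes, those of iron storage were higher with lactate. Fth1, the heavy chain of ferritin and the most highly counted separated gene, had 49124, 48506 and 44208 CPM against 35934 and 31764 CPM, a log2 ratio of 0.46 (0.44 to 0.48). Ftl1, the light chain, had 17000, 24698 and 24191 CPM against 15831 and 14032 CPM. Both chains were separated beyond counting error, but ferritin genes have pseudogene copies with which reads can be shared. Ncoa4, the receptor that carries ferritin to the lysosome, was higher as well, with 445, 304 and 228 CPM against 115 and 178 CPM. The iron transporter Slc11a2 was lower, with 4.04, 40.8 and 115 CPM against 137 and 225 CPM. So was Cp, the ferroxidase ceruloplasmin, but near the floor, with 2.02, 1.63 and 0 CPM against 10.6 and 8.91 CPM. Of 13 iron genes tested, 3 (23.1%) were higher and 4 (30.8%) lower, beside 5.99% and 15.4% of all genes. With TMM factors 5 (38.5%) were higher and with DESeq2 factors 4 (30.8%), beside 7.44% and 7.58% of all genes. With either 2 (15.4%) were lower, since Lcn2 and Slc39a14 then overlapped, a share near the 13.5% and 13.6% of all genes.

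In glycolysis 5 of 17 genes (29.4%) were higher with lactate, beside 5.99% of all genes, and 1 was lower, counts that were equal with TMM and DESeq2 factors. With those factors the iron and heat shock lists had larger shares of higher members than glycolysis, 38.5% and 30.8% with TMM and 30.8% each with DESeq2. The differences were small, and the median log2 ratio of the list was 0.09. Pgam1, the phosphoglycerate mutase, had 1169, 1347 and 1704 CPM against 1002 and 872 CPM, a log2 ratio of 0.59 (0.49 to 0.68), and it alone was separated beyond counting error. Pkm, the pyruvate kinase, had 4892, 3906 and 4243 CPM against 3285 and 3737 CPM. The enolase Eno1 had 3980, 3575 and 3618 CPM against 3002 and 3496 CPM. For both, the nearest cells lay within counting error of each other. Aldoc, a fructose-bisphosphate aldolase, had 148, 91.4 and 140 CPM against 69.3 and 26.7 CPM. The hexokinases, which admit glucose to the pathway, parted: Hk1 had 142, 122 and 109 CPM against 28.2 and 103 CPM, whereas Hk2 had 2.02, 42.4 and 53.5 CPM against 61.1 and 296 CPM. Gapdh, Tpi1, Pgk1, Pfkl and Gpi1 overlapped between the groups.

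Genes that handle lactate itself showed no common direction, with 1 of 20 higher and 3 lower, shares close to those of all genes. Ldha, the muscle-type lactate dehydrogenase subunit, overlapped, with 1549, 1750 and 2367 CPM with lactate and 1731 and 1430 CPM in controls. Ldhb, the heart-type subunit, was lower with 66.7, 63.7 and 40.9 CPM against 84.6 and 159 CPM. Slc16a3, which encodes the lactate exporter MCT4, had 291, 191 and 198 CPM against 496 and 360 CPM, a log2 ratio of -0.99 (-1.18 to -0.81). Slc16a1, which encodes MCT1, overlapped at 24.3, 11.4 and 0 CPM against 21.1 and 67.8 CPM. Within the pyruvate dehydrogenase complex, Dlat was higher and Pdhb lower, each within counting error, and Pdhb overlapped with TMM or DESeq2 factors. Hif1a, the oxygen-regulated transcription factor, is listed at 0 in all 5 cells and in all 16 cells of the lactate experiment, and no level was read from it. Its target Vegfa was at 8.09, 4.90 and 9.44 CPM against 58.7 and 0 CPM, and the hypoxia list had 3 of 19 genes (15.8%) lower and none higher, a share near that of all genes (15.4%).

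In the TCA cycle 4 of 22 genes (18.2%) were higher, beside 5.99% of all genes, and 1 was lower. With TMM or DESeq2 factors 5 (22.7%) were higher and none lower. Idh2, the mitochondrial NADP-dependent isocitrate dehydrogenase, had 133, 142 and 92.8 CPM against 41.1 and 37.4 CPM, a log2 ratio of 1.62 (1.19 to 2.07). Mdh1, the cytosolic malate dehydrogenase, had 465, 375 and 296 CPM against 162 and 159 CPM. These 2 enzymes were clear of the controls beyond counting error, while Idh1 and Mdh2 were nearer. Of the nuclear genes of complex I, 3 of 35 (8.57%) were higher and 1 lower by plain CPM, with a median of -0.04. That share of higher genes was not far from that of all genes. With TMM or DESeq2 factors 5 (14.3%) were higher and none lower, beside 7.44% and 7.58% of all genes higher. In complexes III and IV 5 of 21 genes (23.8%) were higher and none lower, led by Uqcrc2 with 166, 152 and 104 CPM against 78.7 and 57.1 CPM, and in ATP synthase 3 of 14 (21.4%) were higher and none lower. No member of complexes III and IV or of ATP synthase was separated beyond counting error. The list median of complexes III and IV was 0.25, but against the summed controls it was -0.80 in Lactic5 and 0.29 and 0.39 in the other two lactate-treated cells. Complex I and ATP synthase were likewise below 0 in Lactic5, at -0.74 and -0.62, and above it in the other two. The 13 genes encoded in mitochondrial DNA went the other way by plain CPM, with 4 (30.8%) lower, beside 15.4% of all genes. None was higher, and the median was -0.40. Among them mt-Cytb, a subunit of complex III, had 52.6, 99.6 and 70.8 CPM against 117 and 209 CPM. With TMM or DESeq2 factors 2 of these 4, mt-Co1 and mt-Nd5, overlapped. That left 15.4% of the 13 lower, near the 13.5% and 13.6% of all genes with those factors.

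**Figure D3:**
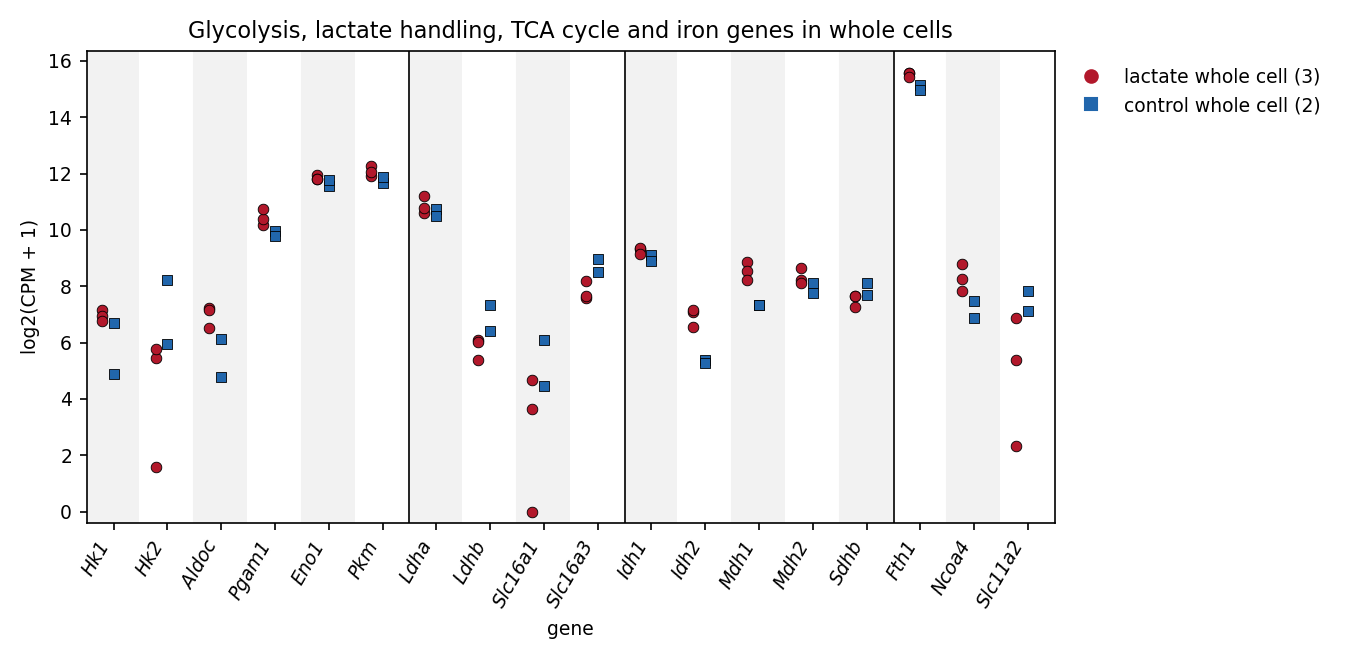
Log2(CPM + 1) per whole cell (vertical) for genes of glycolysis, lactate handling, the TCA cycle and iron (horizontal, divided by vertical lines), with red circles for 3 lactate-treated and blue squares for 2 control cells. Idh2, Mdh1 and Pgam1 show the red points clear above the blue ones, whereas Ldha and Slc16a1 overlap.

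Lysosomal, chaperone and redox genes also contained members that were higher. Lipa, the lysosomal acid lipase that frees cholesterol and fatty acids, stood out with 2534, 2523 and 2550 CPM with lactate and 711 and 1562 CPM in controls, a log2 ratio of 1.27 (1.19 to 1.36) that was 0.70 without CTL4 and 1.84 without CTL8. Its 3 lactate-treated cells were nearly level, and the controls differed from each other by more than 2-fold. Ctsd, Psap and Gaa were higher too and Ctsc and Gusb lower. Of 34 lysosomal genes 11.8% were thus higher and 5.88% lower, beside 5.99% and 15.4% of all genes. With TMM or DESeq2 factors 17.6% were higher and 2.94% lower, as Gusb then overlapped. Of all genes, 7.44% and 7.58% were higher and 13.5% and 13.6% lower with those factors. Of 13 heat shock proteins 3 (23.1%) were higher and none lower, with Hspa8, the constitutive HSP70, at 1622, 2124 and 1829 CPM against 1425 and 1207 CPM. Prdx6, a peroxiredoxin, had 1430, 1239 and 1535 CPM against 815 and 802 CPM, and 2 of 24 genes of the NRF2 list (8.33%) were higher, not far from the 5.99% of all genes. With TMM or DESeq2 factors 5 (20.8%) were higher, beside 7.44% and 7.58% of all genes, since Keap1, Txn1 and Sqstm1 then joined them. In the pentose phosphate pathway the transketolase Tkt had 627, 668 and 798 CPM against 442 and 432 CPM. There Rpia, the ribose 5-phosphate isomerase, had no count with lactate and 29.4 and 55.3 CPM in controls. With the floor of 3 counts over the group it was 23.0-fold lower. That log2 ratio of -4.53 is set by the floor, and it was -3.87 without Lactic7 and -3.90 without Lactic6.

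Several genes with the widest gaps below the controls were near the floor in the lactate-treated cells. Uvssa, a DNA repair factor, had 0, 0 and 1.57 CPM with lactate and 74.0 and 139 CPM in controls. Its ratio rests on 1 count in the treated cells, in Lactic7 (log2 interval -12.76 to -4.94). Without Lactic7 the log2 ratio was set by the floor, at -5.20. Xpo6, the nuclear exporter of actin, had 4.04, 4.90 and 9.44 CPM against 114 and 123 CPM. Rasa1, a GTPase-activating protein of RAS, had 0, 0 and 1.57 CPM against 64.6 and 67.8 CPM. For Uvssa and Rasa1 the treated cells held at most 1.57 CPM, and for Xpo6 at most 9.44 CPM. The controls were close to each other for Xpo6 and Rasa1 but not for Uvssa. Ppard, a nuclear receptor for fatty acids, had 0, 8.16 and 1.57 CPM against 70.5 and 67.8 CPM. Among the others of the 12, March3, Mtus1, Ssh3, Hivep2, Epc1, Lst1 and Nlk had nearest cells 6.30 to 9.87 times apart. The acetyltransferase genes Ep300, Crebbp and Kat6a were lower as well, but 3 of 22 genes that write or erase histone acyl marks (13.6%) is no more than the 15.4% of all genes. Ep300 had 44.5, 44.1 and 37.8 CPM against 109 and 67.8 CPM.

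Inflammatory, interferon and MHC class I presentation genes showed few separated members. Il1b was the 1 gene of 21 in the M1-type list, lower at 107, 13.1 and 3.15 CPM against 108 and 415 CPM, and it overlapped with TMM or DESeq2 factors. Of 25 interferon-stimulated genes 2 were lower. Of 11 genes of MHC class I presentation, a list that does not hold H2-M2, none was separated by plain CPM. With TMM or DESeq2 factors 1 of them, Psme1, was higher. Among 21 genes of the amino acid response, 4 were lower, with Sesn2, a leucine sensor, at 0, 13.1 and 3.15 CPM against 38.8 and 87.4 CPM. In fatty acid synthesis and storage 5 of 22 genes were lower, including Acaca, the acetyl-CoA carboxylase, at 46.5, 60.4 and 20.5 CPM against 150 and 102 CPM. None of the 22 was higher by plain CPM, whereas 3 were with TMM factors (Elovl1, Acsl4 and Plin3) and 4 with DESeq2 factors (Plin2 as well). Across these lists the share of lower members ran from 0 to 22.7%, beside 15.4% of all genes.

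**Figure D4:**
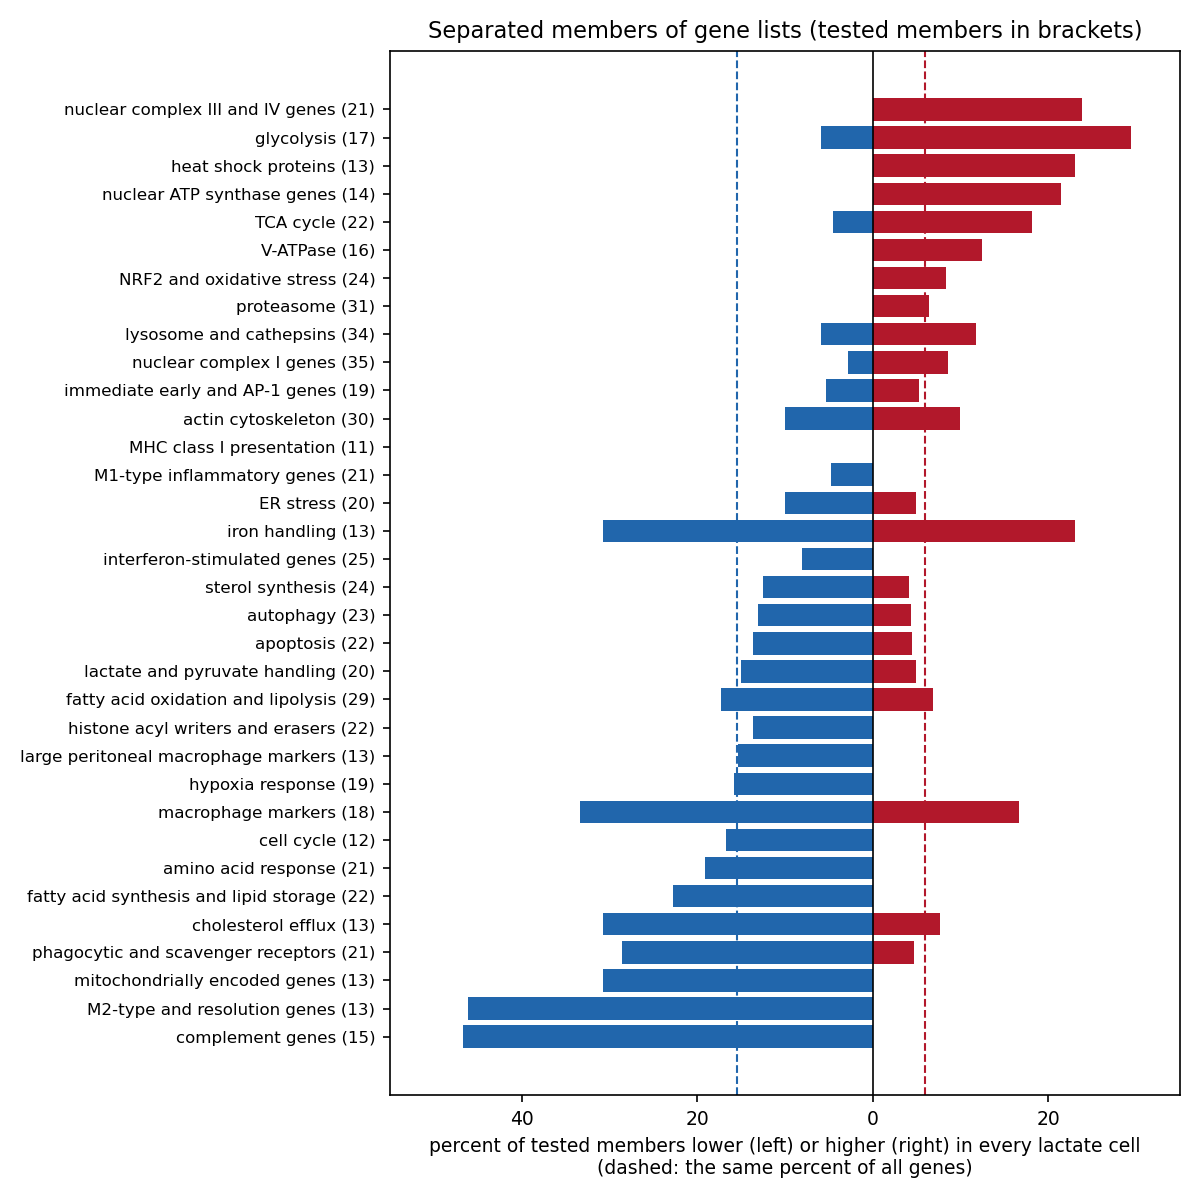
Percent of the tested members of each gene list (vertical, lists with 10 or more tested members, number in brackets) that were lower (blue, to the left) or higher (red, to the right) in every lactate-treated cell (horizontal). Dashed lines mark all genes, 15.4% lower and 5.99% higher, and complement and M2-type genes reach 46.7% and 46.2% lower while glycolysis reaches 29.4% higher.

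The same table holds 4 lactate-treated cells that went through scMeT-seq, in which a nanocapillary withdrew cytoplasm before lysis. They have no controls of their own technique there, and set against CTL4 and CTL8 they would share the controls used above, so only their values are given. C1qc stood at 265, 2527, 179 and 470 CPM in Lactic13, Lactic14, Lactic16 and Lactic17, and Apoe at 1591, 10682, 99.2 and 678 CPM. Lactic14 was therefore at the level of the control cells for C1qc and Apoe, and the other three were at or below the level of the lactate-treated whole cells in Apoe and near it in C1qc. Axl had 139 and 103 CPM in Lactic14 and Lactic17 and no count in the other two. Idh2 ran from 84.7 to 248 CPM. Abca1 ran from 198 to 532 CPM.

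The lactate experiment of the series, with 8 lactate-treated and 8 control cells that all went through scMeT-seq, shares no cell with the whole-cell comparison. There, 0 of 11506 genes were separated in either direction, and 3 were higher and 4 lower of 10477 once 3 cells with markers of another cell type were left out. Separation is harder to reach with 8 cells a group than with 3 and 2. By the sign of the log2 ratio, which does not depend on the number of cells in this way, 48.2% of 9395 genes were higher and 51.8% lower there. Of the genes higher in whole lactate-treated cells, 252 of 582 (43.3%) were higher in that experiment too, and of the lower genes 688 of 1464 (47.0%) were lower. Genes separated beyond counting error came to 41.1% and 39.7%. All of these shares lay below those of all genes, a difference that was not tested.

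The C1q chains were among the genes with the same direction in both, although they were picked out after their values had been seen. C1qc had a lowest, median and highest level of 184, 569 and 1037 CPM in the 8 lactate-treated cells of that experiment and of 27.7, 1115 and 2126 CPM in its 8 controls, a log2 ratio of -1.11 (-1.19 to -1.02). C1qb stood at -0.80 and C1qa at -0.88. The control cell with the least C1q, CTL32, held 43449 CPM of fibroblast markers and 1365 CPM of macrophage markers. Without it and the other cells that hold markers of another type, the ratios were -1.28, -0.99 and -1.05. Apoe had a log2 ratio of -0.65 (-0.69 to -0.61) there, with levels that overlapped from 253 to 6758 CPM with lactate and from 72.0 to 12666 CPM in controls. Fcgr1 was lower in both comparisons, at -2.58 and -2.59, though the former value was -1.93 without Lactic7 and -3.29 without Lactic5. The value of the lactate experiment rests on few counts. Without its cells that hold markers of another type it was -2.93, at 4.56 CPM with lactate and 34.8 CPM in controls. Axl averaged 94.1 CPM with lactate and 117 CPM in controls of that experiment. CTL32 held 567 CPM of Axl, and CTL30, with 9132 CPM of fibroblast markers, held 215 CPM. Lactic28, without fibroblast markers, held 247 CPM. With the cells that hold markers of another type left out, the Axl log2 ratio was 1.61 (1.18 to 2.05), and the groups overlapped. Any link of Axl to fibroblast markers was not tested. Idh2 and Pgam1 were higher in both, at 1.30 and 0.63 in that experiment and at 0.70 and 0.58 without its cells that hold markers of another type. Mdh1 was opposite, at 1.21 in whole cells and -0.99 in the lactate experiment (-1.26 without those cells). Arg1 was opposite too, with a log2 ratio of 0.74 in the lactate experiment, and so were C3 at 0.72, C4b at 0.70, Abca1 at 0.50 and Hk2 at 2.10. Without the cells that hold markers of another type these were 0.59, 0.38, 0.37, 0.12 and 1.96. Lipa, Ctsd, Psap, Ftl1 and Ncoa4, higher in whole lactate-treated cells, stood at -0.35, -0.34, -0.28, -0.17 and -0.14 there without those cells. The interval of Ncoa4 included 0 (-0.32 to 0.05). Fth1 and Gaa kept their direction, at 0.12 and 0.52. The medians of whole lists differed likewise. The complement median was -1.49 in whole cells and -0.26 in the lactate experiment, and the M2-type median was -1.93 and 0.05. The TCA cycle stood at 0.18 and -0.39, complexes III and IV at 0.25 and -0.24, ATP synthase at 0.13 and -0.32 and complex I at -0.04 and -0.20. Glycolysis stood at 0.09 and 0.53, and mitochondrially encoded genes at -0.40 and -0.92. Of the 12 genes with the widest gaps, 5 of the higher and 9 of the lower ones kept their sign. The 2 comparisons differ in technique, and since no culture is named for either, technique and culture cannot be told apart.

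**Figure D5:**
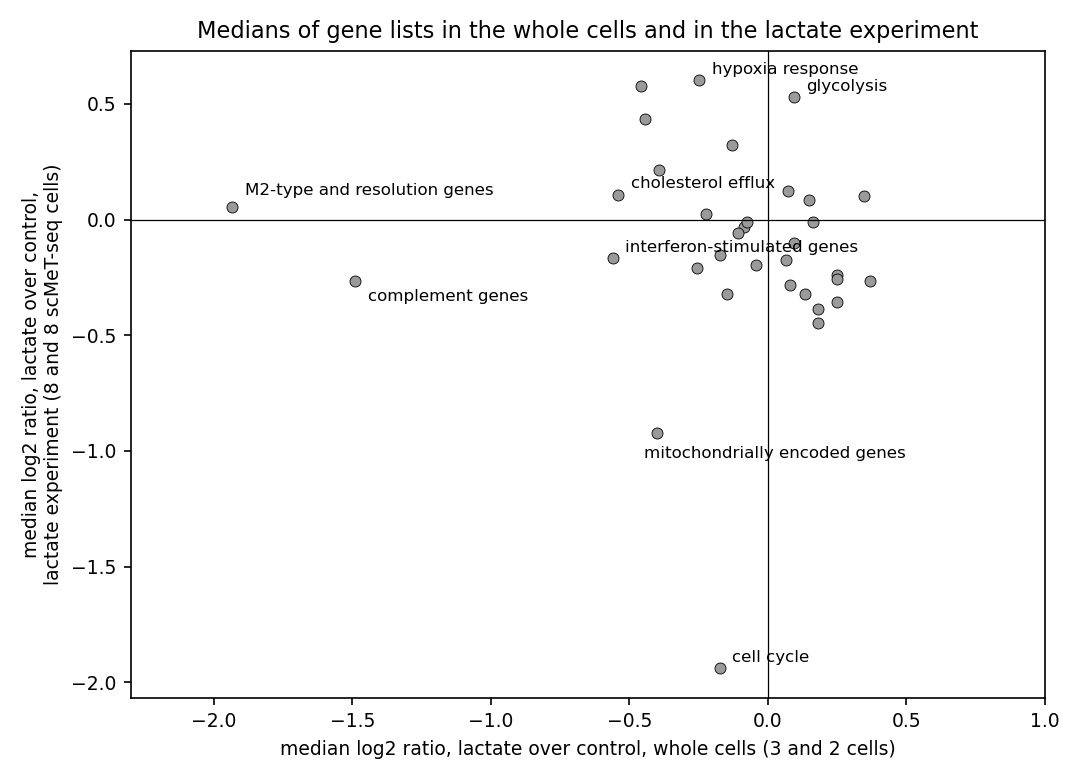
Median log2 ratio of lactate over control for each gene list in the whole cells (horizontal) and in the lactate experiment (vertical), each point a list with 10 or more tested genes in both. Complement genes lie below 0 on both axes (-1.49 and -0.26), and M2-type genes lie far to the left but near 0 on the vertical axis (-1.93 and 0.05).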

How the data were processed

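The authors trimmed the reads with fastp 0.20.0, aligned them to mm10 with HISAT2 2.1.0 and counted them per gene with StringTie, per the methods and the submitters' processing notes. The deposited whole-number counts are not normalized and carry no molecular identifiers. The tables list 32285 genes, of which 32158 identifiers matched GENCODE M21.

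CPM, log2 ratios of summed CPM and exact intervals (95%) were computed from these counts in Python 3.11.15 (scipy 1.17.1, pandas 2.3.3, numpy 2.4.6). Figures were drawn in matplotlib 3.10.9. Scaling factors came from edgeR 4.0.16 and DESeq2 1.42.0 in R 4.3.3. No test was run, as each group is 1 sample. A count of 0 to 2 was set to 3 for the nearest-cell ratio, and a summed 0 to 3 counts over the group. Counting and intervals were tested on simulated data.

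Named genes are the 12 in each direction with the widest gap among genes separated past 2-fold with 50 CPM or more in every cell of the higher group (25 higher and 114 lower qualified), up to 4 separated members of each of 44 lists, the 4 most abundant separated genes in each direction, and genes tied to the treatment, without predicted genes. Any further list member that is named was picked with its values in view. The members and lists were chosen with earlier results of these data known. Alternatives were TMM and DESeq2 factors, a minimum of 100 counts or none, thinning to 494520 counts, mean CPM, leaving out each cell, and leaving out 3 cells of the lactate experiment whose markers of another type reach 10% of the macrophage markers. The tables of the AZD3965 experiment and the metabolomes were not used here. One of the genes named by the rule is not reported here.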

Additional observations from a re-analysis of the deposited data

Results flagged for a closer look

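In 21 groups of cells that were examined for a cell far from the others, 6 values stood out by the width of the gap to the next cell. The measure flags about 1 in 20 groups by chance where values are normally distributed and groups independent. Here several groups hold the same cells and CPM values are skewed, so 6 of 21 cannot be set against that rate. Among the 4 lactate-treated scMeT-seq cells of the technique comparison, Lactic14 held 2199 CPM of C1qb where the next cell held 499.5 CPM, 2527 CPM of C1qc where the next held 470 CPM, and 10682 CPM of Apoe where the next held 1591 CPM. The C1qa level of Lactic14, 2426 CPM, was the highest of the 4 but did not stand out by the same measure. In the lactate experiment, lactate-treated cell Lactic29 had the lowest sum of macrophage markers, 43738 CPM beside 64699 CPM in the next cell, and 7290 CPM of fibroblast markers beside 833 CPM in the next. Control cell CTL32 there had 43449 CPM of fibroblast markers beside 9132 CPM in the next. No such measure was applied to the 3 and 2 whole cells, which are too few for it.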

How the results depend on the processing

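No paired analysis was possible because the lactate-treated and control whole cells share no cell number and the results come from no test. With 1 cell left out, genes higher in every lactate-treated cell numbered 979 to 1512 and lower ones 2024 to 2929, and past 2-fold 209 to 486 and 597 to 1119. Fewer cells make separation easier by construction. With a minimum of 100 counts, 400 genes were higher and 678 lower of 4715, and past 2-fold 38 and 127, because fewer genes enter. TMM factors gave 724 higher and 1317 lower genes, DESeq2 factors 738 and 1321, and thinning 552 and 1339. Of 135 separated named genes, 16 overlapped with TMM and with DESeq2 factors, all of them lower ones. With 1 cell left out, the log2 ratio of 63 of the 135 moved by over 1.5-fold and that of 0 changed sign. A separated gene keeps the order of its cells whichever cell is left out. The lack of sign changes therefore follows from the call and is no check of it. The complement median was -1.05 with 100 counts and -1.79 to -0.77 with 1 cell left out. The M2-type median was -1.82 with TMM, -1.81 with DESeq2, -1.9955 with the mean of per-cell CPM, -0.87 with 100 counts, and -2.0005 to -1.05 with 1 cell left out. The glycolysis median was 0.21 with TMM, 0.22 with DESeq2 and 0.080 to 0.24 with 1 cell left out. The median of lactate and pyruvate handling was -0.28 without a filter and -0.46 (without CTL8) to 0.24 (without CTL4) with 1 cell left out, so its direction rests on CTL4. Without CTL4 the interferon median moved from -0.56 to 0.67, and without CTL8 the M1-type median moved from -0.22 to 1.15. For these medians the cause was not tested. The share of higher genes with the same direction in the lactate experiment was 47.6% (50.7% of all genes) without its cells with markers of another type, and that of lower genes 42.1% (49.9% of all) with 100 counts. It stayed below that of all genes in every alternative that was run. Counts per cell limit genes under about 6 CPM, where 0 and 3 counts cannot be told apart.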
